A study of Mus musculus with 2 samples.

Results

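On an array of probes for microRNAs (miRNAs), 6.75% of the 1586 probes that the authors' deposited table lists as near homologues had an average log2 intensity of 9 or more: 50 from 9 to below 10, 29 from 10 to below 11, 16 from 11 to below 12 and 12 at 12 or more. They were chosen by these 2 criteria, status and brightness, so their brightness is a description and is not tested. Each of the 1586 carries the same name in that table, which says only that the probe was not designed for mouse. The species, the miRNA and its number are therefore unknown here, and a member could not be paired with the mouse probe of the same miRNA. Neither hybridisation to a related mouse miRNA nor a signal without a mouse counterpart can be assigned to any of them, and the label of bright probes of other species rests on the status column alone. Members are described by brightness and ratio, and 4 are given by the probe number of the table.

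RNA came from the mouse line G2N2C, derived from basal cell carcinoma (BCC) as its label gives it. Cells received Stealth-D3, an oligonucleotide against the deiodinase D3 that Dio3 encodes, or Stealth-ctr, its control. All cells were kept in low calcium with keratinocyte growth factor and 8% fetal bovine serum freed of Ca2+, and were harvested 48 h after transfection. RNA of 3 experiments was pooled for each condition. The same 2 pools were put on each array: on array 1, Stealth-D3 carried Cy3 and Stealth-ctr Cy5, and on array 2 the dyes were exchanged. The arrays thus hold 1 replicate of each condition, their spread (SD over 2 arrays) is technical, and no test between the conditions was possible. Precision is limited by having 2 arrays, and the extent to which Dio3 was reduced was not analysed here.

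Near homologues are miRNAs of different species, or members of one family, whose sequences are alike over most of their length and often identical over the seed, the stretch near the 5′ end that pairs with target messages. A hybridisation probe binds by complementarity and not by origin, so a probe built for one species can bind a close relative in another. Locked nucleic acid, the chemistry of these probes, raises the binding strength of short probes and is used to separate miRNAs that differ at single bases. D3 inactivates thyroid hormone, which acts on the growth and differentiation of keratinocytes.

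No sequence of a member can be shown, since no file used here holds one. What single-base homology looks like within mouse is shown instead by bright mouse probes, whose miRNAs are named. Of 30 such miRNAs matched to RefSeq (GRCm38.p6), 5 pairs differed at a single base. The following 3 pairs are shown because they hold the smallest difference and the 2 largest in the mean ratio as deposited, an order that the authors' deposited table does not keep; capitals mark the seed, bases 2 to 8, which is identical within each pair.
let-7a: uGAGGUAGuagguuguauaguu
let-7c: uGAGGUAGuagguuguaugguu
miR-30a: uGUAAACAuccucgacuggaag
miR-30e: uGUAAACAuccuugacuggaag
miR-27a: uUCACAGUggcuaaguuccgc
miR-27b: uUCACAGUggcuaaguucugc
Counted from the 5′ end, the change from let-7a to let-7c is A19G, that from miR-30a to miR-30e is C13U and that from miR-27a to miR-27b is C19U. A genomic position of the mature let-7a is chr13:48538239-48538260 on the minus strand, and let-7c lies at chr15:85706616-85706637 and chr16:77599672-77599693 on the plus strand. miR-30a lies at chr1:23272274-23272295 (plus strand) and miR-30e at chr4:120772660-120772681 (minus strand). The coordinates of miR-27a are chr8:84208727-84208747 and those of miR-27b chr13:63300760-63300780, both on the plus strand.

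The log2 ratios used below come from the value table, with the sign of array 1 turned so that both arrays run the same way between the pools. A positive value lies on the side of miR-21, the mouse miRNA farthest from 0, which had 3.08 and 4.12 on the arrays and is an oncogenic miRNA in many tumours. The sources used here do not say which dye is the numerator. Read as Cy5 over Cy3, the side of miR-21 is the Stealth-D3 pool, and read as Cy3 over Cy5 it is the Stealth-ctr pool. Sizes are therefore given with sides and no direction of change. The mean ratios of let-7a and let-7c differed by 0.04, but the arrays differed in opposite directions, with -1.36 and 1.64 for let-7a and -2.02 and 2.22 for let-7c. For miR-30a and miR-30e the means differed by 0.57, with 0.54 and 2.09 on the arrays for miR-30a and 0.48 and 1.02 for miR-30e. Those of miR-27a and miR-27b differed by 0.998, but the arrays differed in opposite directions. The arrays had -0.09 and 0.64 for miR-27a and -0.63 and 3.18 for miR-27b. In the authors' deposited table the same pairs differ by 0.379, 0.345 and 0.619, and the smallest difference of the 5 pairs, 0.16, is that of let-7b and let-7c.

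In brightness, the members ran from 9.01 over a median of 10.1 to 14.8. Mouse probes at 9 or more numbered 63, with a median of 10.2, and the brightest was miR-668 with 14.7. Brightness differs between probes for reasons of their sequence too, so these values do not rank the levels of miRNAs. Members made up 59.8% of the 179 probes at 9 or more, while near homologues made up 75.5% of all 2101 probes. As a share of their own class, the members were 6.75% of near homologues, while 14.9% of the probes with mouse status, mismatch probes included, reached 9. At 12 or more the 12 members stood beside 15 mouse probes. The last near homologues left out had 8.92 to 8.99, and the first 5 taken in had 9.01 to 9.03, so the threshold falls in a continuous range.

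The labelled cell type was checked on mouse probes. Of 19 mouse probes for miRNAs linked to keratinocytes, 10 were at 9 or more. The 19 ran from 6.82 over a median of 9.08 to 12.8. The 10 were miR-141, miR-200a, miR-200b, miR-200c, miR-205, miR-24, miR-27a, miR-27b, miR-31 and miR-31*. No probe for miR-203, miR-429, miR-184 or miR-210, which are on the same list, was among them. None of 9 fibroblast and smooth muscle, 7 blood, 6 muscle, 8 neuron, 4 liver and gut or 13 embryonic stem cell probes reached 9, and their highest was 8.58, a neuron probe. The members carry no name and could not be set against these lists. In pooled RNA of many cells, fewer cells with a miRNA and less of it per cell cannot be told apart.

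Most members kept the sign of their ratio when the dyes were exchanged. Before a sign was turned, 86 members were positive on both arrays, 0 were negative on both, and 21 differed in sign. A difference between the pools alone would change sign with the dyes, as it did for these 21, which share a sign after turning. The median of the members was -0.74 on array 1 and 0.91 on array 2 after turning. The part of the ratio shared by both arrays before turning, here called the dye part, was above 0 for every member, from 0.02 over a median of 0.77 to 2.38. It was 0.04 in the median over the 1479 other near homologues and 0.78 over the 63 bright mouse probes. It was above 0 for all 179 probes at 9 or more, and for the bright mouse probes it ran from 0.12 to 2.44. Among the members its median was 0.54 at intensities from 9 to below 10, 0.84 from 10, 1.56 from 11 and 1.86 at 12 or more. Among mouse probes of the same ranges it was 0.43, 0.68, 2.13 and 1.94. It was larger than the mean turned ratio, in absolute size, for the same 86 members and for 41 of 63 bright mouse probes. This holds exactly when both arrays share a sign before turning, so it is not a separate result.

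The mean turned ratio of the members had a median of 0.02, with an interquartile range from -0.30 to 0.42 and extremes of -2.25 and 1.48. The median technical SD over the turned arrays was 1.08. This SD is the dye part on another scale, and the dye part cancels in the mean of both arrays, so it is not the error of these means. The median was 0.28 over the bright mouse probes, 0.01 over the other near homologues and 0.03 over all probes. By the sign of the mean, 51 members lay opposite miR-21 and 56 on its side, and with a trend on brightness removed these counts were 63 and 44.

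A member was counted as differing between the pools when its turned arrays shared a sign and their mean reached 1.5-fold (0.585 on the log2 scale). By this rule of size, 6 members differed towards miR-21 and 9 away from it. Over all 2101 probes the rule took 3.24% on the side of miR-21 and 2.52% opposite, together 5.76%. For the members together the share was 14.0%, for the other near homologues 3.52%, and for the bright mouse probes 31.7%, with 15 on the side of miR-21 and 5 opposite. The members' share was thus above that of all probes and below that of mouse probes at 9 or more, a difference that was not tested. From 9 to below 10, 8 of 50 members and 13 of 24 mouse probes passed, and from 10 to below 11, 6 of 29 and 7 of 19. With the trend removed, 9 of 50 and 9 of 29 members passed there, beside 10 of 24 and 10 of 19 mouse probes. At an intensity of 12 or more, 0 of 12 members passed, and 1 of 16 passed from 11 to below 12, beside 0 of 15 and 0 of 5 mouse probes. Turned arrays share a sign only when the mean is larger than the dye part in absolute size. At 12 or more the members' dye part was at least 1.48, and their means lay between -0.62 and 0.91. The 0 of 12 therefore does not show that these members were alike in both pools. With the trend removed 4 of 12 members passed at 12 or more, and 7 of 16 from 11 to below 12. Of the mouse probes in these brightest ranges, 2 of 15 and 3 of 5 then passed. By the authors' fold changes, 4 and 4 members reached 1.5-fold, beside 4 and 2 of these mouse probes.

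Among the members that passed, the farthest from 0 was probe 28302, opposite miR-21. Its ratio was -3.69 on array 1 and -0.80 on array 2, with a mean of -2.25 ± 2.05 (technical SD, 2 arrays) or a 4.75-fold difference between the pools. Both arrays placed it on the same side, but array 1 gave a much larger value than array 2. Its average log2 intensity was 11.5. The authors' deposited table gives it a log2 fold change of -2.08 and an unadjusted p-value of 3.02e-08, the lowest of that table, and what served as replicates for that p-value is not stated. Of the 10 probes with the lowest deposited p-values, 5 were members and 4 were mouse probes. The members were chosen for brightness and made up 59.8% of the 179 probes that reached the intensity threshold. In the authors' deposited table, 29.6% of these 179 reached 1.5-fold, against 6.62% of the 1677 probes with a fold change. The 5 of 10 therefore cannot be read as particular to the members.

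The next on that side was probe 13137, one of the 2 dimmest members with 9.01. Its arrays had -1.69 and -0.94, with a mean of -1.31 ± 0.53 (technical SD, 2 arrays), and the authors' deposited table gives -1.29. Its arrays lay closer together than those of probe 28302, and neither was near 0. The other 7 members that passed on this side had means from -1.22 to -0.76.

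On the side of miR-21, the farthest to pass was probe 11146, with an average log2 intensity of 9.90. Its ratio was 0.03 on array 1 and 2.57 on array 2, with a mean of 1.299 ± 1.80 (technical SD, 2 arrays). Its dye part was 1.27, which is the gap between its turned arrays on another scale. What made this gap was not tested. The authors' deposited table gives it 0.70. Probe 31066, with an intensity of 9.03, had 0.65 and 1.87, a mean of 1.26 ± 0.86 (technical SD, 2 arrays), and 0.77 in the authors' deposited table. Here both arrays were clear of 0 as deposited, as they were not for probe 11146, and the dye part was smaller, 0.61. The other 4 that passed had means from 0.84 to 1.22. The highest mean of any member, 1.48, belonged to a probe that did not pass, because its arrays had -0.16 and 3.12.

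The deposited ratios of each array changed with brightness, and this trend was subtracted with a lowess curve as a second set of values. In it 76 members shared a sign on both arrays and 31 did not, and the median technical SD was 0.24. The rule then took 13 members on the side of miR-21 and 16 opposite, or 27.1%. Over all probes it took 3.24% and 3.38%, together 6.62%, and of the bright mouse probes 39.7%. All 15 members that passed as deposited also passed with the trend removed. Probe 28302 then had -2.57 and -2.35 on the arrays, with a technical SD of 0.16, and probe 13137 had -1.30 and -1.49. For probe 31066 the arrays were at 1.05 and 1.31, and for probe 11146 at 0.61 and 1.67. The arrays of each of these 4 probes lay closer together than before. The subtraction itself takes out the part of the gap that runs with brightness, so the closer arrays and smaller SD are not separate support.

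The members share arrays, pools and dyes and do not replicate each other. Across them the correlation of both turned arrays was Pearson r = 0.01 as deposited and 0.41 with the trend removed. Within narrower ranges of brightness the deposited values followed each other more closely, with r = 0.65 over the 50 members from 9 to below 10, 0.22 over the 29 from 10, 0.67 over the 16 from 11 and 0.58 over the 12 at 12 or more. With the trend removed the same groups had 0.68, 0.21, 0.76 and -0.05. In both sets of values the arrays followed each other more closely over the members below 10 than over those from 10 to below 11. Mouse probes had the same order in these ranges, with r = 0.92 and 0.65 as deposited and 0.93 and 0.75 with the trend removed.

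In the authors' deposited table more members lay opposite miR-21 than on its side. Its log2 fold change was below 0 for 75 members and above 0 for 32, or 70.1% below 0, with a median of -0.28. The share below 0 was 54.0% for the bright mouse probes, with a median of -0.09, and 61.4% for the other near homologues. Over all 1677 probes with a fold change it was 60.2%, with a median of -0.03, so the share was above 50% in each of these classes. At 1.5-fold it holds 6 members on the side of miR-21 and 22 opposite, together 26.2%, against 6.62% of all probes (2.27% and 4.35%) and 34.9% of the bright mouse probes (7 and 15). The sign of the mean of the arrays was that of the authors' fold change for 83 members as deposited and for 91 with the trend removed. Both tables, and the trend-removed values, kept 4 members on the side of miR-21 and 9 opposite past 1.5-fold, so all 9 that passed opposite did so in each. The other 2 that passed on the side of miR-21 did not reach 1.5-fold in the authors' deposited table.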

How the data were processed

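The deposited value table has, for each of 2 arrays, a processed dye ratio for 2244 features, taken here as log2. No source used here states its scale, centring or dye order. The medians of its columns were 0.039 and 0.040. For 2101 probes the authors' deposited fold-change table gives, per the file headers, the log2 fold change, a mean log2 intensity, a p-value without adjustment and the fold with its sign. How it was normalized, and with which tool, is not stated. The rule kept 107 near homologues, all with a fold change, of the 1586. RNA was extracted with Trizol, cleaned on a column and labelled with a kit for locked nucleic acid arrays, per the labels' protocols. Ratios were joined by probe number, the first array's sign was turned, and both arrays were averaged as 1 replicate. No p-value was computed. A lowess trend (span 0.3) on average intensity was fitted over all 2101 probes. Members and lists were chosen with earlier results of these data known, and the class of bright mouse probes replaced the planned pairing by miRNA number, which the names do not allow. Probe numbers are printed for the 2 highest and 2 lowest means past the rule of size. Unstarred mouse names were matched to the historically major arm in RefSeq. The rule and the trend removal were run on simulated data with large effects, small noise and no dye part beyond the trend. That run does not show how they act on smaller differences or on probes with a dye part of their own. Python 3.11.15, NumPy 2.4.6, pandas 2.3.3 and statsmodels 0.14.6 were used.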

Additional observations from a re-analysis of the deposited data

How the results depend on the processing

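The count of 6 members on the side of miR-21 became 10 at 1.3-fold, 3 at 2-fold, 13 with the trend removed, 14 at an intensity of 8 or more and 3 at 10 or more. The count of 9 opposite became 16 with the trend removed, 22 by the authors' fold changes, 19 at 8 or more and 4 at 10 or more. Together, 15 became 29 with the trend removed, 28 by the authors' fold changes, 33 at 8 or more and 7 at 10 or more. With single arrays and no demand on signs, the counts were 2 (first array) and 72 (second) on the side of miR-21, 68 and 4 opposite, and 70 and 76 together. Median-centred arrays also gave 6 and 9. Over all probes the share was 5.76% as deposited, and 6.62% both with the trend removed and by the authors' fold changes. For the other settings no share over all probes was computed, so those counts cannot be read as particular to the members. The median ratio of the members was -0.16 with the trend removed and -0.28 by the authors' fold changes, against 0.02 as deposited. The 4 numbered probes kept their side under every alternative tried for them. For the single arrays this was fixed in advance, since the rule that chose them asks for the same sign on both arrays. The pairing with mouse probes by miRNA number, and the count of members without one, were not run because the names hold no number. No paired analysis was possible because 1 pair of pools was measured. The cause of these changes was not tested, except that fewer or more probes enter at other intensities. The trend step and the class of bright mouse probes were chosen with the data known.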
